A study of Homo sapiens with 135 samples.

Results

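TET2 binding was compared across days 0, 4 and 9 of neural induction in H9 cells given the compound BPK25. H9 is an established human embryonic stem cell line, and neural induction drives such pluripotent cells towards neural progenitors. The 3 TET2 peak lists were reduced to 1 region per distinct interval, and an overlap of 1 bp or more made regions of different days shared. This gave 31522 regions for day 0, 13324 for day 4 and 1928 for day 9, so 46774 regions of the 833373 in all 36 peak lists of the series.

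The series is chromatin immunoprecipitation sequencing (ChIP-seq), which maps where a protein sits on DNA, in 135 samples that form 45 groups of 3 replicates. BPK25, a small molecule reported to promote the loss of NuRD subunits, was used at 20 µM with daily renewal in the induction medium; the labels do not spell out how long the day 0 cells had been exposed. The comparison groups were H9 cells of the same days given the vehicle DMSO and untreated cells (WT), the latter with CTCF and MBD3 only. No group carries a genetic change in its labels, and all come from the 1 line H9. The labels' protocols name antibodies for CTCF, MBD3 and TET1 and none for TET2 or TET3, so the specificity of the TET2 signal rests on the label alone.

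TET2 is one of 3 enzymes that oxidise 5-methylcytosine to 5-hydroxymethylcytosine and further, a route by which DNA methylation is removed. Unlike TET1, it has no CXXC DNA-binding domain of its own and depends on partner proteins to reach its sites. TET1 and TET2 are the main forms in pluripotent cells, and TET3 gains importance during neural differentiation. CTCF is a zinc finger protein at the anchors of chromatin loops, and MBD3 is a subunit of NuRD, a complex that joins nucleosome remodelling and histone deacetylation.

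Each list was called on its 3 replicates pooled, so the values below carry no replicate error and no test between days was possible. Intervals are Wilson 95% intervals and cover counting error only. The lists of a day and treatment may share an input, and the replicates are not stated to be separate cultures. Shares are set beside 2 backgrounds: the share after the TET2 regions were moved 10 kb to either side, and the share of all 350373 merged places of the 36 lists, TET2 places included, that hold the peak in question. Regions are given by their hg19 coordinates; the gene annotation and sequence of that build were not used here.

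The TET2 lists became shorter and weaker from day 0 to day 9. The covered length was 8106 kb on day 0, 3417 kb on day 4 and 476 kb on day 9, while the median width of a region stayed between 199 and 215 bp. The median fold enrichment at the summit, the authors' ratio of signal to local background, was 4.31 on day 0, 3.62 on day 4 and 3.51 on day 9. Regions with a −log10 q of at least 5 made up 24.4% of the day 0 list, 18.8% of the day 4 list and 9.23% of the day 9 list. DMSO cells had another order, where TET2 had 3485 regions on day 0, then 36633 on day 4 and 15250 by day 9.

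The local background that a summit had to exceed moved with this decline. Its median, solved from the fold enrichment and p-value of each summit, was 1.51 fragments on day 0, 2.61 on day 4 and 3.81 on day 9, and the median pileup at the summit was 10, 13 and 16 fragments. In the DMSO TET2 lists the median background lay between 1.13 and 1.23 fragments on the 3 days. For TET1 under BPK25 it also rose, from 1.94 on day 0 to 2.22 on day 4 and 2.50 on day 9. Those TET1 lists had 72148, 84203 and 43694 regions. The lists state no depth, and the part of the background in the number of TET2 regions was not tested.

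Most TET2 regions under BPK25 were found on 1 day only, and nearly all sharing was between days 0 and 4. The 3 lists merged into 41037 places. Of these, 26190 (63.8%) held TET2 on day 0 only, 7853 on day 4 only and 1598 on day 9 only. Another 5068 places (12.4%) held it on days 0 and 4, 119 on days 0 and 9, 100 on days 4 and 9, and 109 (0.266%) on all 3 days.

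Of the day 4 regions, 40.3% (39.5 to 41.1) overlapped a day 0 region, against 4.06% after the 10 kb shift and 8.75% of all merged places that hold a day 0 TET2 region. Of the day 0 regions, 16.5% (16.1 to 17.0) overlapped a day 4 region, against 1.70% after the shift and a background of 3.68%. Both shares were several times their backgrounds.

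Day 9 stood apart from the earlier days. Of its regions, 11.8% (10.4 to 13.3) overlapped a day 0 region and 10.7% (9.43 to 12.2) a day 4 region, against 1.53% and 1.06% after the shift. The first share is near the 8.75% of all merged places with a day 0 region, and the second is above the 3.68% for day 4. In the other direction 0.714% of day 0 regions and 1.58% of day 4 regions overlapped a day 9 region, where 0.537% of all merged places hold one.

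**Figure D1:**
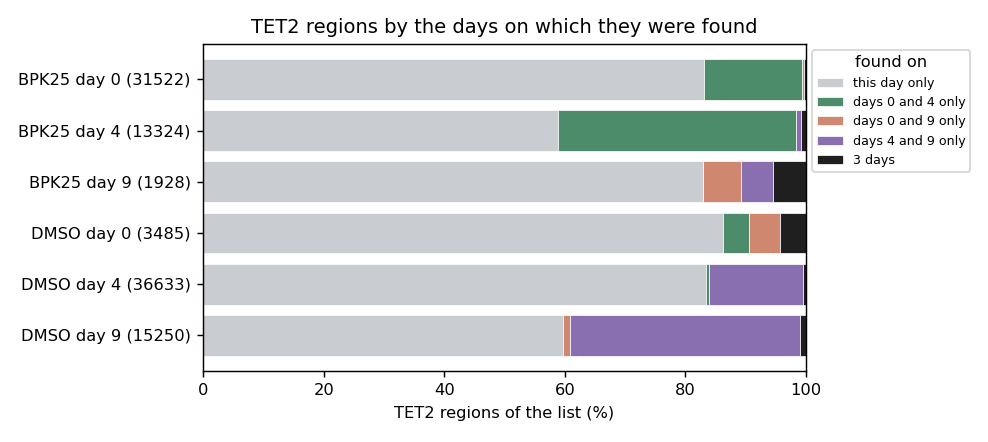
Share of the regions of each TET2 list (horizontal axis, %) by the days on which they were found, for the 3 BPK25 and the 3 DMSO lists, with the number of regions in brackets. Under BPK25 the shared regions are mostly those of days 0 and 4, which make up 39.5% of the day 4 list, and under DMSO those of days 4 and 9, which make up 38.2% of the day 9 list.

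The difference in list length limits what days 0 and 4 can share with day 9, so the 1928 regions of highest −log10 q were taken from each day. At that length 53.2% (51.0 to 55.4) of the day 0 regions overlapped a day 4 region. Of the day 9 regions, 3.73% (2.98 to 4.68) overlapped a day 4 region and 2.23% (1.66 to 2.99) a day 0 region. When the lists were instead ranked by fold enrichment, the share of day 0 in day 4 was 11.8%, so the size of that overlap depends on which regions are called strongest. Ranked either way, the share between days 0 and 4 was above that between days 4 and 9.

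The vehicle lists paired other days. At 1928 regions each, 4.05% of day 0 DMSO regions overlapped a day 4 DMSO region, and 18.5% (16.8 to 20.3) of day 9 DMSO regions did. TET1 under BPK25 shared all 3 days at that length, with 55.7% of day 0 regions and 45.7% of day 9 regions overlapping day 4.

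Shared regions had the higher median −log10 q on every day. On day 0 the regions also found on day 4 only had a median −log10 q of 6.20, against 2.98 for regions of day 0 alone, and a median width of 315 bp against 189 bp. Their fold enrichment was also higher, 5.00 (quartiles 4.06 to 6.43) against 4.21 (3.65 to 4.91). On day 4 the regions shared with day 0 had a median −log10 q of 3.77 against 2.44 for regions of day 4 alone. On day 9 the regions shared with either day had 2.88, against 2.32 for regions of day 9 alone.

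The fold enrichment did not follow on days 4 and 9. The day 4 regions shared with day 0 had a median fold of 3.43, below the 3.78 of the regions of day 4 alone, while their pileup of 18 fragments and background of 4.66 were above 11 and 2.06. On day 9 the regions of all 3 days had a median fold of 2.89 against 3.55 for day 9 alone, with a pileup of 27 fragments on a background of 8.13 against 16 on 3.56. The day 4 regions shared with day 0 and the day 9 regions of all 3 days thus lay where both signal and background were high. The day 4 regions shared with day 9 alone were close to those of day 4 alone, with a pileup of 12 fragments, a background of 2.47 and a fold of 3.77. The order by fold changed with the filter: among regions of at least 4-fold, the ratio of the median fold of shared to unshared regions was 1.01 on day 4 and 1.03 on day 9, against 0.909 and 0.908 without the filter.

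**Figure D2:**
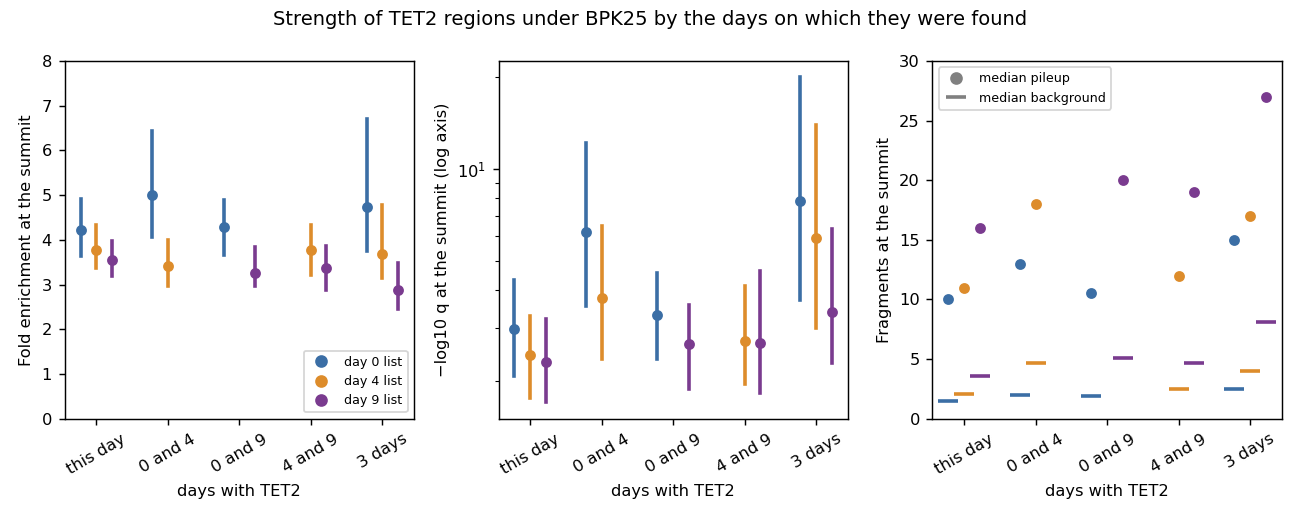
Fold enrichment (left), −log10 q on a log axis (middle), and fragments at the summit (right) of the TET2 regions of each BPK25 list, by the days on which they were found. Points are medians and vertical lines quartiles; in the right panel dashes are the median background. The day 4 regions shared with day 0 lie lower in fold (3.43) and higher in −log10 q (3.77) than those of day 4 alone (3.78 and 2.44).

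The chance that a region was found on another day rose with its −log10 q. Each list was divided by −log10 q into 4 bins of equal size. In the lowest bin of the day 0 list 5.63% of regions overlapped a day 4 region, and in the next bins 8.31%, 12.6% and 39.6%. In the day 4 list the share that overlapped day 0 was 23.9%, 28.4%, 38.5% and 70.3% from the lowest to the highest bin. The rise was smaller for day 9, where 7.26% of the lowest and 19.1% of the highest bin overlapped a day 4 region. Even in the highest bin of day 0, 1.21% of regions were found on day 9.

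Where regions overlapped, their summits lay close together. The median distance between summits was 42 bp over the 5403 overlapping pairs of days 0 and 4, and 70.6% of those pairs lay within 100 bp. It was 47 bp for the 227 pairs of days 0 and 9 and 47 bp for the 210 pairs of days 4 and 9. Across the pairs of days 0 and 4, Spearman's rho was 0.572 for −log10 q and 0.212 for fold. These are descriptions across regions, which share a library and a background model within each list.

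By share of regions, TET1 was the other antibody most often found at the TET2 regions of days 0 and 4, and MBD3 at those of day 9. In each case this was also the longest of the other 4 lists of that day. A peak of at least 1 of the other 4 antibodies overlapped 53.5% (53.0 to 54.1) of day 0 regions, 63.1% (62.3 to 63.9) of day 4 regions and 42.7% (40.5 to 44.9) of day 9 regions. The same shares after the 10 kb shift were 7.55%, 8.57% and 4.69%. The share of all merged places with any of the 4 was not computed. TET1 peaks lay at 20.3% of those places on day 0 and 23.4% on day 4, and MBD3 peaks at 12.4% on day 9. The background for any of the 4 is at least as high as these values. The lists compared differ widely in length, from 321 TET3 regions on day 9 to 84203 TET1 regions on day 4.

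TET1, which has a DNA-binding domain of its own, overlapped 49.9% of day 0 regions, 60.7% of day 4 regions and 20.6% of day 9 regions. The backgrounds over all merged places were 20.3%, 23.4% and 12.3%, so day 9 was the closest to its background. TET3 overlapped 21.4% of day 0 regions against a background of 4.19%, and 4.04% of day 4 regions against 3.54%. The day 4 share was near that background and above the 0.469% found after the 10 kb shift. On day 9 it overlapped 5.19% of regions, or 100 of 1928, against 0.0885% for a list of 321 regions.

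MBD3, the NuRD subunit, overlapped 0.517% of day 0 regions (background 0.161%), 9.15% of day 4 regions (4.34%) and 30.1% of day 9 regions (12.4%). Its list grew from 590 to 15456 and 44297 regions over the same days. CTCF overlapped 2.60% of day 0 regions (background 0.345%), 2.24% of day 4 regions (4.03%) and 9.75% of day 9 regions (1.06%). On day 4 the CTCF share, from a list of 14500 regions, was below the background over all merged places and above the 0.676% found after the 10 kb shift.

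Read from the other lists, TET2 covered much of the short day 0 CTCF list. Of its 1296 CTCF regions, 66.2% (63.6 to 68.7) held a day 0 TET2 region, as did 45.5% of the 15244 TET3 regions and 21.4% of the 72148 TET1 regions. On day 4, 2.02% of CTCF regions and 4.15% of TET3 regions held TET2. On day 9 TET2 lay at 31.2% (26.3 to 36.4) of the 321 TET3 regions and at 1.31% of the 44297 MBD3 regions. Of all merged places, 8.75%, 3.68% and 0.537% held TET2 on days 0, 4 and 9. The day 4 share of CTCF regions was below that background, and the day 4 share of TET3 regions was near it.

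The combinations of antibodies differed by strength, and on day 4 the order depended on the measure. On day 0 the 505 TET2 regions with CTCF, TET1 and TET3 but no MBD3 had a median fold of 7.32, against 4.13 for the 14648 regions with none of the 4. On day 4 the commonest companion was TET1 alone, at 6681 regions. Another 904 regions had MBD3 and TET1 only, with a median −log10 q of 5.19, against 2.37 for regions with none. Their median fold was lower, at 3.39 against 3.78. All 4 other antibodies were found at 91 day 0 regions (0.289% of the list), 61 day 4 regions (0.458%) and 20 day 9 regions (1.04%). The share of all merged places with all 4 was not computed.

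Regions shared between days 0 and 4 held TET1 about as often on either day, and more often than unshared regions. On day 0, 84.9% (83.9 to 85.9) of them overlapped TET1, against 43.0% (42.4 to 43.6) of the regions of day 0 alone. On day 4 the values were 87.2% and 42.2%. TET3 overlapped 59.6% of these shared regions on day 0 and 1.79% on day 4, while MBD3 went from 1.39% to 13.2%. The share of all merged places with MBD3 also rose, from 0.161% to 4.34%, and the part of the longer list was not tested. The same places thus had TET1 on both days and TET3 mostly on day 0.

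The difference in TET1 was present at each level of strength. In the lowest bin of −log10 q on day 0, 60.8% of the regions shared with day 4 and 33.2% of the unshared regions held TET1. In the highest bin the values were 94.1% and 61.4%. On day 4 they were 77.9% against 37.9% in the lowest and 92.8% against 52.5% in the highest bin. Shared regions were wider within these bins too, at 408 against 208 bp in the highest of day 0 and 206 against 188 bp in its lowest, and the part of width was not tested.

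The regions that day 9 had in common with day 4 alone looked different. On day 4 these 104 regions held TET3 in 58.7% (49.1 to 67.7) and CTCF in 35.6% (27.0 to 45.1), against 1.79% and 0.969% for the regions of days 0 and 4. Places with peaks in at least 18 of the 36 lists held 38.5% of the former and 4.35% of the latter, and their part in this difference was not tested. On day 9 the regions of all 3 days held MBD3 in 77.9% and TET1 in 74.0%, against 23.8% and 14.5% for the regions of day 9 alone. Places with peaks in at least 18 lists held 69.2% of these 3-day regions and 7.01% of the regions of day 9 alone. Such places carry peaks of other lists by definition, and their part here was not tested.

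**Figure D3:**
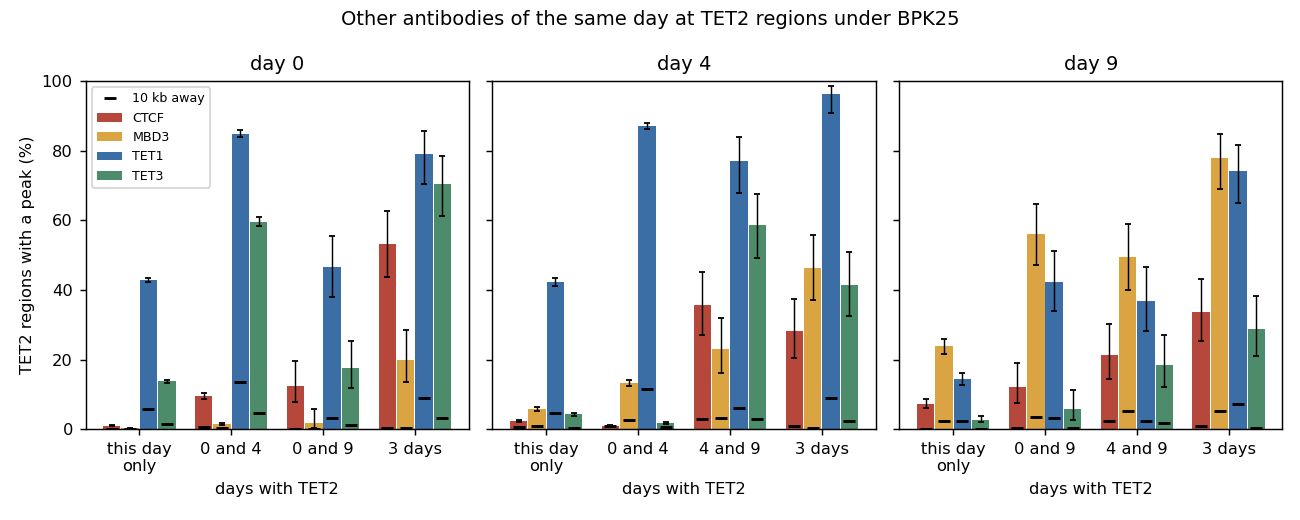
Share of TET2 regions under BPK25 (vertical axis, %) with a peak of CTCF, MBD3, TET1 or TET3 of the same day, by the days on which TET2 was found. Bars carry Wilson 95% intervals and black dashes give the share after a 10 kb shift. TET1 stands at 84.9% and 87.2% of the regions of days 0 and 4 in their 2 lists, and MBD3 at 77.9% of the 3-day regions on day 9.

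The day 9 regions lay mostly at places found in day 4 control cells. Of the 1928 regions, 61.9% (59.7 to 64.0) overlapped a day 4 TET2 region of DMSO cells, against 9.78% of day 0 and 14.3% of day 4 regions and a background of 9.97%. They also overlapped day 4 DMSO TET1 in 62.3%, TET3 in 62.4% and MBD3 in 58.0% of cases, where 12.6% of all merged places hold that MBD3 peak. Untreated cells gave a like value, with 63.9% at day 4 WT MBD3 peaks. Each of these lists gave between 2.83% and 3.50% after the 10 kb shift.

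The overlap with the other DMSO lists varied by day and antibody. Day 9 DMSO TET3 peaks overlapped 55.5% of the day 9 BPK25 TET2 regions, against a background of 6.96%, and day 9 DMSO TET2 peaks overlapped 33.5%. Day 9 DMSO MBD3 peaks, 44052 in number, overlapped 10.5%, against 2.46% after the 10 kb shift. The day 0 DMSO lists overlapped between 2.49% (TET2, 3485 regions) and 7.37% (MBD3, 7511 regions), against 0.23% and 0.60% after the shift. The shares of all merged places with these MBD3 and day 0 peaks were not computed. For the day 9 BPK25 MBD3 list, of 44297 regions, that share was 12.4%. The 10.5% was thus not shown to exceed its background, and these lists are not ranked by overlap. A TET2 region of any DMSO day lay at 67.0% of day 9 regions, 17.1% of day 0 regions and 23.5% of day 4 regions. No peak of any of the 21 DMSO and WT lists lay at 9.03% of day 9 regions, 45.6% of day 0 regions and 38.5% of day 4 regions. All 3 TET lists of day 4 DMSO cells met at 43.8% of day 9 regions, against 3.92% of day 0 and 7.16% of day 4 regions. The shares of all merged places with these properties were not computed, so the values are set against each other only. For a TET2 region of any DMSO day, that background is at least the 9.97% of day 4 alone.

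Length of the DMSO list moved these values without changing their order. With the day 4 DMSO TET2 list reduced to its 13324 regions of highest −log10 q, 43.8% of day 9 regions overlapped it, against 4.65% of day 0 and 7.47% of day 4 regions. With all 3 BPK25 lists at 1928 regions, the shares were 61.9%, 15.6% and 18.8% for days 9, 0 and 4. Regions of day 9 alone gave 57.6%.

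The lists of day 0 DMSO TET3 and day 9 BPK25 TET1 had more in common with days 0 and 4 than with day 9. The first overlapped 36.8% of day 0 and 41.3% of day 4 regions, against 7.11% of day 9 regions. After the 10 kb shift these shares were 4.09%, 4.53% and 1.69%. Day 9 BPK25 TET1 overlapped 27.1% and 35.0%, against 20.6% of day 9 regions and a background of 12.3%. Day 9 BPK25 MBD3 overlapped 25.3% and 31.5%, and the 30.1% of day 9 regions lay between these values. The background for that MBD3 list was 12.4%. Places of TET2 on days 0 and 4 therefore appeared in TET1 and MBD3 lists of day 9 BPK25 cells. TET2 itself was listed on day 9 at 0.714% and 1.58% of them, against a background of 0.537%. Its day 9 list had 1928 regions, against 43694 for TET1 and 44297 for MBD3, and the part of list length was not tested. In the opposite direction, 52.1% of the 3485 day 0 DMSO TET2 regions held a day 0 BPK25 region.

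**Figure D4:**
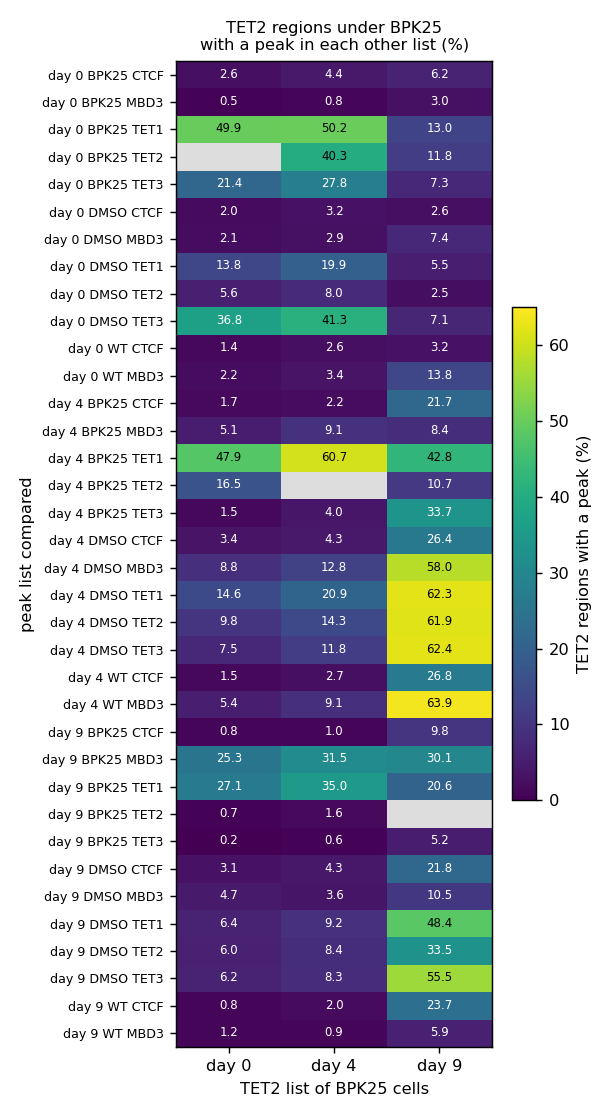
Share of TET2 regions of day 0, 4 and 9 under BPK25 (columns) with a peak in each of the other peak lists (rows), as a colour scale and as printed percentages; grey marks a list against itself. The day 9 column is highest in the day 4 DMSO and WT rows, at 58.0% to 63.9% for MBD3 and the TET proteins, and the day 0 and 4 columns in the BPK25 TET1 rows.

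Day 9 regions also belonged more often to places found in many of the 36 lists. Places with peaks in at least 18 of the 36 lists held 13.2% of day 9 regions, 1.41% of day 0 and 2.97% of day 4 regions, and the median number of lists at a region was 10, 4 and 5. Among regions of all 3 days the share was 70.5% on day 0, 68.9% on day 4 and 69.2% on day 9. Without such places 34 of the 109 places of all 3 days were left, and 5.80% of day 9 regions overlapped a day 4 region. The overlap with day 4 DMSO TET2 was then 56.8%. Of all merged places 60.0% lay in 1 list only, against 20.6% of day 0, 17.7% of day 4 and 7.47% of day 9 regions. The share of all merged places in at least 18 lists is not given here.

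The 2 places of all 3 days in the most lists lie at chromosome landmarks. The region chr1:121484383-121485421, beside the centromere of chromosome 1, lay in all 36 lists, with a TET2 −log10 q of 1193, 2517 and 3025 on days 0, 4 and 9 at folds of 2.51, 2.84 and 2.23. The region chr5:10031-11768, at the short-arm end of chromosome 5, was also in all 36 lists, with folds of 3.13, 6.01 and 3.61 and −log10 q of 14.1, 67.5 and 59.7. The first combined very high −log10 q with folds below the median of each list.

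Among places in fewer than 18 lists, chr9:126119989-126120247 had the highest −log10 q kept on all 3 days. Its TET2 fold was 5.73 on day 0, 5.61 on day 4 and 3.75 on day 9, with −log10 q of 8.17, 11.1 and 7.25. TET1 and TET3 were found there on days 0 and 4 under BPK25 and none of the other 4 antibodies on day 9. All 3 TET proteins were listed there on day 4 in DMSO cells.

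The place chr1:32230185-32230512 had nearly level TET2 folds of 3.88, 4.02 and 3.94, and TET1 on all 3 days. MBD3 joined it on day 9. At chr1:9188737-9189081 the folds were 4.74, 5.04 and 3.49, and TET1 was found on days 4 and 9. At both places TET1 was listed beside TET2 on days 4 and 9.

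The place chr7:157355347-157356650, near the long-arm end of chromosome 7, fell from a fold of 10.8 on day 0 to 3.12 on day 4 and 2.87 on day 9. It held CTCF, TET1 and TET3 on day 0, TET1 on day 4, and MBD3 and TET1 on day 9. At chr17:26578283-26578648 the folds were 4.64, 3.96 and 3.99, with MBD3 on day 0, TET1 on day 4 and both on day 9. Folds come from lists called separately and are set side by side without a comparison between days.

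Places of 2 days were ranked by the lower of their 2 −log10 q values. The strongest of days 0 and 4, chr10:42386937-42387458 and chr10:42392213-42392391, lie beside the centromere of chromosome 10, with −log10 q of 1002 and 1045 at the first and 669 and 632 at the second. For days 0 and 9 they were chr1:204440270-204440774, with folds of 6.12 and 4.76, and chr5:177543536-177543744, with 5.41 and 4.26. Both of these also held TET1, TET2 and MBD3 in day 4 DMSO cells. For days 4 and 9 they were chr3:195225364-195225617, with folds of 4.64 and 4.35 and no other BPK25 antibody on those days, and chr11:76494668-76494880, with 6.05 and 3.95. In day 4 DMSO cells the chromosome 3 place held no peak, and the chromosome 11 place held CTCF, MBD3, TET1, TET2 and TET3.

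The regions of 1 day with the highest −log10 q differed in kind. On day 0 they were chr3:196625618-196625776, with a fold of 7.14 and TET3, and chr16:46407394-46408063, with a fold of 6.24 and all 4 other antibodies. The latter lies beside the centromere of chromosome 16. On day 4 they were chr11:51582666-51583009 and chr10:130262646-130262885, with folds of 2.06 and 3.14 and MBD3 at both. Their −log10 q was 61.5 and 27.2, at folds below the median of the list. On day 9 chr10:42398594-42398778 had a fold of 1.31, also below the median of its list, at a −log10 q of 23.9. It lies near the 2 places beside the centromere of chromosome 10 named above. The other, chr19:7894778-7895063, had a fold of 8.12, TET3 on the same day, and a TET2 region on all 3 days in DMSO cells.

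In the whole lists TET2 regions stood closer together on days 0 and 4 than on day 9. The median gap to the nearest other region of the list was 8.21 kb on day 0, 20.5 kb on day 4 and 212 kb on day 9. Another region lay within 10 kb for 54.1% (53.5 to 54.6), 36.6% (35.8 to 37.4) and 13.2% (11.8 to 14.8) of regions. Since a shorter list leaves wider gaps, the 1928 regions of highest −log10 q of each day were compared as well. They gave 38.6%, 34.0% and 13.2%, with DMSO TET2 lists of that length at 27.5%, 12.5% and 11.9%. With the 1928 regions of highest fold instead, the BPK25 values were 15.9%, 5.97% and 13.2%, so day 4 fell below day 9 and the order depended on the ranking.

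Regions shared by days 0 and 4 were more closely packed than regions of 1 day. In the day 0 list 69.3% of them had a neighbour within 10 kb, against 51.1% of the regions of day 0 alone, and in the day 4 list 51.5% against 26.5%. Runs of at least 5 regions with gaps of at most 10 kb numbered 724 on day 0, 128 on day 4 and 3 on day 9, and held 18.8%, 7.93% and 1.14% of regions. Outside chromosome 8, the mitochondrial sequence and the contigs, the longest run of day 0 had 50 regions over chr16:46386371-46456141, beside the centromere, and that of day 4 had 39 over chr1:2575872-2630246, near the short-arm end. On the same chromosomes the longest of day 9 had 5 regions.

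On days 0 and 4 more regions lay near chromosome ends than on day 9. The outer 5 Mb of chromosomes, measured from the first or last region called in any list, held 33.2% (32.7 to 33.8) of day 0, 35.0% (34.2 to 35.8) of day 4 and 16.6% (15.0 to 18.3) of day 9 regions. All merged places of the series gave 18.8%. The regions shared by days 0 and 4 reached 49.7% on day 0 and 50.2% on day 4, while regions of day 9 alone gave 13.9%. DMSO TET2 gave 31.0% on day 0, 19.3% on day 4 and 20.0% on day 9, and TET1 under BPK25 between 26.2% and 29.2%.

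The densest 1 Mb window was the same on days 0 and 4. The window chr1:2000001-3000000 held 204 day 0 regions, 109 of day 4 and 8 of day 9, where the median window with any region held 5, 3 and 1. On day 9 the densest window was chr1:16000001-17000000, with 20 regions, and 57 and 34 on days 0 and 4.

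Chromosome 1 held 25.2% (23.3 to 27.1) of day 9 regions, against 12.2% of day 0 and 13.2% of day 4 regions. All merged places gave 12.8%, and DMSO TET2 gave 10.1%, 17.8% and 16.6% on the 3 days. Other lists were also high, with 22.8% for day 9 WT CTCF, 21.8% (17.6 to 26.6) for day 9 BPK25 TET3 and 20.7% for day 4 DMSO TET3. The 485 day 9 regions fell in 24 windows of 10 Mb along the chromosome, so they were not in a single cluster. Their median fold was 3.26 on a background of 5.34 fragments, against 3.60 on 3.56 for the rest of the list. At a fold of at least 4 the chromosome 1 share was 14.8%, and at a −log10 q of at least 5 it was 27.0%. The part of the higher background in this share was not tested.

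**Figure D5:**
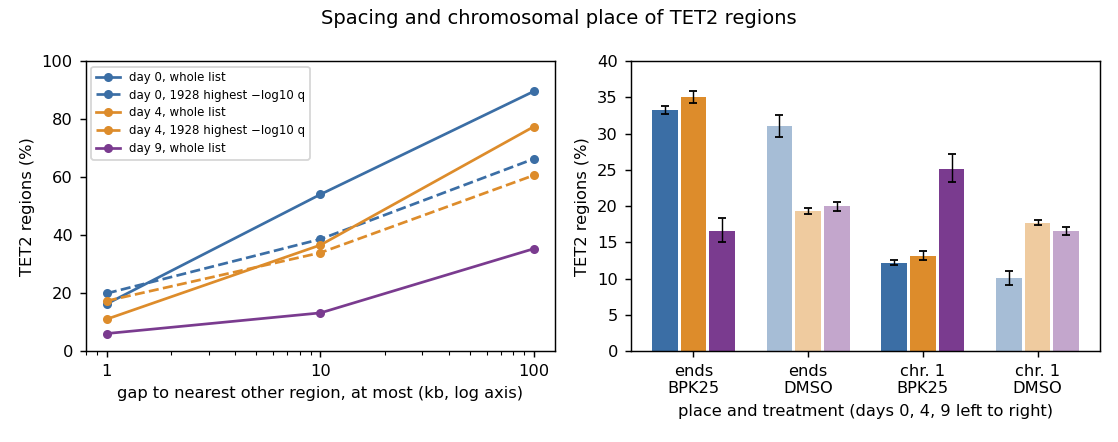
Left: share of TET2 regions under BPK25 (%) with another region of the list within 1, 10 or 100 kb (log axis), for whole lists and for the 1928 regions of highest −log10 q. Right: share in the outer 5 Mb of chromosomes and on chromosome 1 for BPK25 (dark) and DMSO (pale), days 0, 4 and 9 from left to right, with Wilson 95% intervals. Day 9 under BPK25 is lowest at the ends (16.6%) and highest on chromosome 1 (25.2%).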

How the data were processed

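ChIP-seq peak lists were analysed as deposited, 1 list per antibody, day and treatment, called on 3 pooled replicates per the labels. Per the submitters' processing notes the build was hg19 and the tools were MACS2 2.1.2, Bowtie2 2.3.4, bedtools 2.25.0, SAMtools 1.9 and FastQC 0.11.7, with no roles stated. The control input of each list is not given in the sources used here. The authors deposited for each summit a fold enrichment (a linear ratio over local background), a −log10 p-value and a −log10 q-value, with q-values of at most 0.05. These values rank and describe regions within a list. Summits of 1 interval were collapsed to the one of highest −log10 q.

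Pileup and background were solved from fold and p under a Poisson law, for −log10 p up to 12, with a whole pileup within 0.01 in at least 99.8% of such regions of the 3 lists. Overlap was at least 1 bp. Shares carry Wilson 95% intervals. Python 3.11.15, numpy 2.4.6, pandas 2.3.3 and scipy 1.17.1 were used, and overlaps and the solution were tested on simulated data and against bedtools 2.31.1.

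Named regions, outside chromosomes 8 and Y, were the 5 places of all 3 days in fewer than 18 lists with the highest minimum −log10 q, the 2 highest of each pair of days and of each single day, and the 2 recurrent places in the most lists. The members and lists were chosen with earlier results of these data known. Alternatives were stricter −log10 q and fold, 50% reciprocal overlap, a 500 bp window, equal list length, leaving out recurrent places, main chromosomes only and single summits. Comparisons with DMSO day 4 TET2 and of chromosome 1 were added after seeing the data.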

Additional observations from a re-analysis of the deposited data

How the results depend on the processing

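Values below are under 1 changed choice at a time, and the cause of a change was not tested. The share of day 0 TET2 regions that overlapped day 4 (16.5% as reported) was 20.6% at a −log10 q of at least 5, 5.75% at a fold of at least 4, 12.1% at 50% reciprocal overlap, 19.2% within 500 bp, 53.2% and 11.8% at equal list length by −log10 q and by fold, 15.8% without recurrent places and 17.5% for single summits. The share of day 9 regions that overlapped day 4 (10.7%) was 18.5%, 3.14%, 6.90%, 12.9%, 3.73%, 2.54%, 5.80% and 9.26% under the same choices in the same order. The 109 places of all 3 days became 20, 4, 56, 37, 15 and 34 under −log10 q, fold, reciprocal overlap, equal length by −log10 q, equal length by fold and no recurrent places. Day 0 regions with at least 1 other antibody (53.5%) became 55.2% by −log10 q, 40.5% by fold, 40.1% by reciprocal overlap, 59.6% within 500 bp, and 98.0% and 89.3% at equal length by −log10 q and by fold. On day 4 (63.1%) these were 71.2%, 37.0%, 45.9%, 68.1%, 89.4% and 57.0%, and 62.0% without recurrent places. On day 9 (42.7%) the values were 37.6%, 19.3%, 30.5% and 50.3% under the first 4 choices and 35.5% without recurrent places. Day 4 stayed above day 0 and day 0 above day 9 in this share except by fold, where day 0 was above day 4, and at equal length, where day 0 was highest. The ratio of the median fold of shared to unshared regions changed side on day 4 at a fold of at least 4 (1.01) and at equal length by fold (1.03), on day 9 at a fold of at least 4 (1.03), and on day 0 at equal length by −log10 q (0.996). Regions with a neighbour within 10 kb (54.1%, 36.6% and 13.2% on days 0, 4 and 9) became 15.9%, 5.97% and 13.2% at equal length by fold, the 1 choice run under which day 4 lay below day 9, and 43.5%, 11.7% and 1.35% at a fold of at least 4. The overlap of day 9 regions with day 4 DMSO TET2, added after seeing the data, ranged from 31.6% at reciprocal overlap to 69.3% within 500 bp. With main chromosomes only, the overlap shares, the number of 3-day places and the antibody shares named here moved by no more than counting error, and the day 4 share with a neighbour within 10 kb was 35.7%. No paired analysis was possible because each list was called on 3 pooled replicates, and for the same reason no replicate could be left out. The lists state no depth, and the day 9 classes of about 100 regions have wide intervals.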

Other observations

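Chromosome X held 2.66% (2.49 to 2.84) of the day 0 TET2 regions under BPK25, 2.42% (2.18 to 2.70) on day 4 and 0.986% (0.632 to 1.53) on day 9. The DMSO lists gave 2.12%, 1.00% and 0.826% on the same days, so the day 4 list under BPK25 was the one nearer to the day 0 lists. The mitochondrial sequence held 1 TET2 region on day 0, 6 on day 4 and 12 on day 9 under BPK25, and the unplaced and alternative contigs held 1.26%, 1.81% and 0.363% of regions.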
